A study of Homo sapiens with 2 samples.

Results

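The genes described here are 45 genes of G2 and mitosis, taken by symbol from the 36601 genes of the count matrices. All 45 symbols were found, each in 1 row. They were chosen by name and not by a filter on measured values, but with earlier results of these data known. The cells came from H1, an established human embryonic stem cell line that was not genetically modified. They were differentiated for 12 days towards blood with growth factors and then grown for 10 or 14 days on OP9-DLL4, a mouse stromal line that presents the Notch ligand DLL4. Cells carrying CD7, a surface protein of early T and killer lymphocytes, were sorted on each day. The study has 1 droplet-based single-cell library for each day, so day and library cannot be told apart and no test between days could be run. Every interval given here is a 95% interval that covers counting error only.

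A barcode counted as a cell when it had between 1000 and 7000 genes detected and no more than 18% of its UMIs on mitochondrial genes. A UMI is a molecular identifier that stands for 1 captured transcript. This left 12114 cells at day 10 with a median of 16173.5 UMIs, and 8929 cells at day 14 with a median of 15029. The 2 libraries shared 29 barcodes among kept cells, which is 0.239% of the cells of day 10 and 0.325% of those of day 14. Levels are given as CPM, the UMIs of a gene per 1000000 UMIs when both are summed over the cells of a group. For values per cell, each cell was first thinned at random to 5000 UMIs, which left 11823 and 8547 cells.

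G2 is the gap between DNA replication and mitosis. A cell in G2 builds up cyclin B with its kinase CDK1, which drives entry into mitosis. Aurora and Polo kinases, kinesins and kinetochore proteins then build the spindle, and the spindle checkpoint holds the anaphase-promoting complex (APC/C) back until every chromosome is attached. The APC/C with CDC20 then marks securin and the cyclins for destruction. Many of these genes are transcribed late in the cycle, under the DREAM complex and the factors MYBL2 and FOXM1. Promoter elements named CHR and CCAAT box are common among such genes. In the thymus, T cell precursors divide in bursts before they rearrange the T cell receptor alpha locus.

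Of the 45 members, 39 had a promoter in the RefSeq table of build GRCh38.p14. The letters TTTGAA, the core of the CHR, and CCAAT were searched on both strands in the 250 bases before the start. Occurrences of these motifs can share at most 1 base. TTTGAA was in 20 of the 39 member promoters (51.3%) and in 13.6% of all 27305 promoters. CCAAT was in 27 of 39 (69.2%) against 33.0% of all promoters. Both stood together in 16 member promoters (41.0%) and in 4.85% of all promoters. Of 20 promoters of replication genes, 14 held CCAAT and 1 held TTTGAA, so the replication genes resembled the members in the first motif and not in the second. A match of letters is a description and not a bound site. The 3 promoters printed below belong to genes that were low in cells rich in replication transcripts on both days, as described further on. Matches to either motif on either strand are in capitals. CCNB1 has CCAAT matches only, CDC20 has both motifs, and PLK1 has TTTGAA nearest to the start. The first lies at chr5:69166900-69167149 and the second at chr1:43358731-43358980, both on the plus strand. The PLK1 window lies at chr16:23678639-23678888 on the plus strand, inside the span that GENCODE gives the gene from its most upstream start. The last bases of the CCNB1 window also lie inside the GENCODE span of that gene, which starts at 69167135.
CCNB1: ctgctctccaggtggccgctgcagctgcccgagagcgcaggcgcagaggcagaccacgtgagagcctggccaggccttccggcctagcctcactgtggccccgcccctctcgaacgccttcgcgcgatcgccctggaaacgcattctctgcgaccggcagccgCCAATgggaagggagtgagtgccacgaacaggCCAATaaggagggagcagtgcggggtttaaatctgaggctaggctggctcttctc
CDC20: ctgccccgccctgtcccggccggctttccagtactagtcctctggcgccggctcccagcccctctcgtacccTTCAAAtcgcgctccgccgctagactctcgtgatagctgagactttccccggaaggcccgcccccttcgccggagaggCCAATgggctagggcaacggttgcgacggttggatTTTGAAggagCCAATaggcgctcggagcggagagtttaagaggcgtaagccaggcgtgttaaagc
PLK1: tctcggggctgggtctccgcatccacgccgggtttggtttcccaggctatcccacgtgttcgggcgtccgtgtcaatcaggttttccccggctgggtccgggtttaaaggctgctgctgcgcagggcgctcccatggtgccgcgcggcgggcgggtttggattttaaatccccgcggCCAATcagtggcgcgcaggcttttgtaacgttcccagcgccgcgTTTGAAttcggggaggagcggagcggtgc

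The summed members stood at nearly the same level on both days. They made up 6696 CPM on the first day (6685 to 6708) and 6480 CPM on the second (6468 to 6493), a ratio of 0.968. TOP2A was the only member past 1.5-fold higher at day 14, and CCNB1 and UBE2S were past 1.5-fold lower. The other 42 members lay between these limits. Ratios were taken with 5 CPM added to both levels. The counts are 2.22% and 4.44% of the members, and of 8295 genes at 10 CPM or more in a library 12% were past the limit upward and 9.63% downward. For day 14 over day 10 the members had a median log2 ratio of -0.02, and all those genes had one of -0.0015. Myeloid transcripts stood higher at day 10, with 1487 CPM summed over 6 myeloid markers against 21.6 CPM at day 14. In cells with a CD3D UMI, 1 member was higher and 3 were lower.

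TOP2A, the topoisomerase that untangles chromosomes before they separate, was at 289 CPM (287 to 292) on day 10 and 487 CPM (484 to 491) on day 14, a log2 ratio of 0.74. MKI67, the proliferation antigen Ki-67 that coats mitotic chromosomes, stood at 274 and 331 CPM, a log2 ratio of 0.27. The DNA topoisomerase thus differed most upward of all members, while Ki-67 stayed inside the limit.

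Cyclin B1 was the member with the largest difference downward. CCNB1 had 246 CPM (243 to 248) in the first library and 146 CPM (144 to 148) in the second, a log2 ratio of -0.73. Its paralog CCNB2 stood at 157 CPM on day 10 and 155 CPM on day 14. CDK1, the kinase that both B cyclins activate, was at 155 and 182 CPM. CCNA2, the cyclin of S phase and G2, was at 113 and 98.9 CPM. Of the phosphatases that activate CDK1, CDC25B stood at 64.6 and 70.1 CPM and CDC25C at 10.5 and 11.5 CPM. The small CDK-binding proteins CKS1B (286 and 232 CPM) and CKS2 (295 and 225 CPM) had log2 ratios of -0.29 and -0.38.

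The mitotic kinases PLK1 (114 and 88.0 CPM) and AURKA (103 and 75.5 CPM) had log2 ratios of -0.35 and -0.43. TTK, a checkpoint kinase, was at 33.2 and 34.1 CPM. In the chromosomal passenger complex, which corrects wrong attachments and later guides cytokinesis, AURKB (134 and 121 CPM) and BIRC5 (155 and 136 CPM) differed little. CDCA8 was at 61.6 and 61.1 CPM. The scaffold INCENP was at 35.3 and 22.5 CPM, a log2 ratio of -0.55, just inside the limit.

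Spindle checkpoint genes also stayed inside the limit. BUB1 was at 59.8 and 56.7 CPM, BUB1B at 42.4 and 38.7 CPM, BUB3 at 180 and 210 CPM, and MAD2L1 at 236 and 186 CPM. Among centromere and kinetochore genes, CENPA stood at 62.9 and 66.0 CPM, CENPE at 108 and 109 CPM, CENPF at 373 and 396 CPM, NUF2 at 88.2 and 92.5 CPM, and NDC80 at 77.1 and 78.1 CPM. These 5 genes were even between the days, with log2 ratios from 0.02 to 0.08.

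Of the kinesins and spindle proteins, HMMR stood at 141 and 103 CPM, a log2 ratio of -0.43, and NUSAP1 at 190 and 245 CPM, a log2 ratio of 0.36. KIF11, the motor that pushes spindle poles apart, was at 93.7 and 91.7 CPM, KIF20B at 128 and 130 CPM, and KIF2C at 48.7 and 41.6 CPM. TPX2 was at 176 and 181 CPM and TACC3 at 84.9 and 81.2 CPM. None of the 4 cytokinesis genes passed the limit. KIF20A stood at 14.9 and 17.1 CPM, KIF23 at 48.6 and 37.6 CPM, ANLN at 21.7 and 22.6 CPM, and ECT2 at 36.9 and 43.4 CPM.

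UBE2S, which extends ubiquitin chains for the APC/C, was the other member past the limit downward. It had 692 CPM (689 to 696) in the first library and 440 CPM (437 to 444) in the second, a log2 ratio of -0.65. UBE2C, which starts those chains, was at 259 and 256 CPM. The activator CDC20 was at 154 and 121 CPM, and securin, PTTG1, at 228 and 243 CPM. Condensin subunits, which compact chromosomes, split. SMC4 (273 and 359 CPM) and NCAPD2 (57.2 and 81.5 CPM) had log2 ratios of 0.39 and 0.48, SMC2 stood at 206 and 203 CPM, and NCAPG at 89.9 and 72.7 CPM. The Poisson bounds of these levels lay at most 4.78% from the level, with a median of 1.40%. These levels compare a gene with itself between days and give no order between genes.

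**Figure D1:**
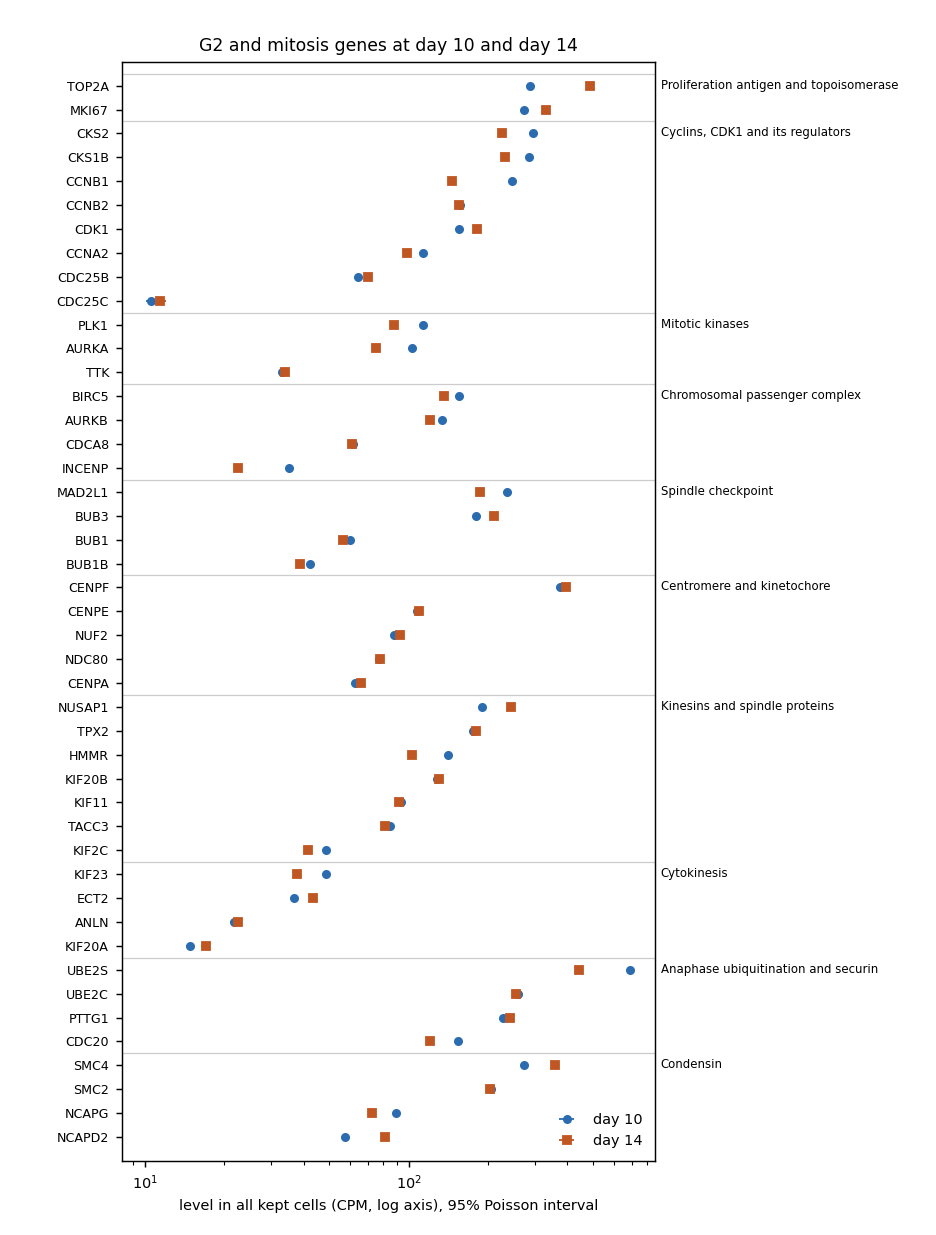
Level of each member in all kept cells of day 10 (circles) and day 14 (squares) in CPM on a log axis, with 95% Poisson intervals that are mostly narrower than the symbols, grouped by role. TOP2A lies to the right at day 14 (289 against 487 CPM), and CCNB1 (246 against 146 CPM) and UBE2S (692 against 440 CPM) lie to the left, while most pairs of symbols touch.

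The near-equal sums hid a different spread over cells. In cells thinned to 5000 UMIs, the members summed to a median of 23 UMIs per cell at day 10 and of 11 UMIs at day 14. The 25th and 75th percentiles were 11 and 45 UMIs at day 10 and 4 and 40 UMIs at day 14. The lower end was thus more populated at day 14, with 25.8% of cells at 0 to 4 member UMIs against 9.62% at day 10. The upper end was also more populated, with 9.47% of cells at 80 UMIs or more against 5.94% at day 10. Cells with 20 or more member UMIs, called member-rich below, made up 55.6% of cells at day 10 (54.7 to 56.5) and 39.1% at day 14 (38.0 to 40.1). Member-rich cells held a mean of 47.6 member UMIs at day 10 and 59.4 at day 14. They carried 85.7% and 85.4% of all member UMIs. Fewer member-rich cells with more member UMIs each therefore gave a mean over all cells of 30.8 UMIs at day 10 and 27.1 at day 14. These 2 means, in which each cell counts equally, correspond to 6170 and 5429 CPM. The pooled sums above give deep cells more weight, and with thinned UMIs 4 members instead of 2 were past 1.5-fold lower at day 14.

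Member-rich cells were deeper than the rest, with a median of 18061 against 14609 raw UMIs at day 10 and 20729 against 12850 at day 14. Cells with a high doublet score were more frequent among them, at 13.3% against 5.58% at day 10 and 11.4% against 4.80% at day 14. Cells with 80 or more member UMIs had few such calls, at 1.85% and 2.72%. Without the called doublets the shares of member-rich cells were 53.45% and 37.35%.

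**Figure D2:**
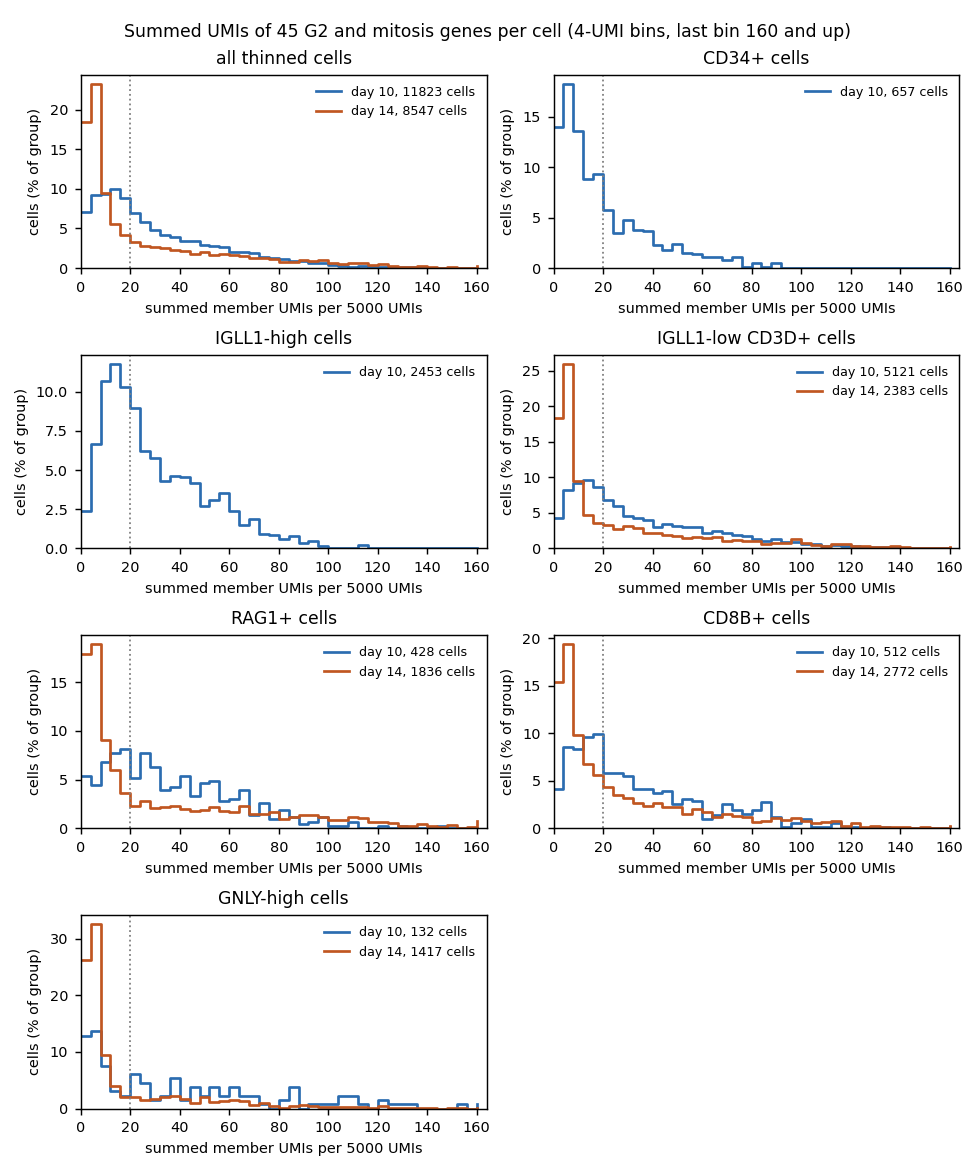
Share of cells (y axis, % of the group) by the summed UMIs of the 45 members per 5000 UMIs (x axis, bins of 4) at day 10 and day 14, for all thinned cells and for each cell group with at least 50 cells, with a dotted line at 20 UMIs. At day 14 the first bins hold a tall peak and the curve has a longer tail, with 25.8% of cells at 0 to 4 UMIs and 9.47% at 80 or more.

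Transcripts of the members were concentrated in the same cells, to different degrees. For each member, cells were ranked by the sum of the other 44 members, and its level in cells with 20 or more of those UMIs was set against cells with at most 4. The median member was 26.2-fold higher in the rich cells at day 10 and 33.2-fold higher at day 14. PLK1 stood at 163 CPM in rich and 2.53 CPM in poor cells at day 14, a ratio of 64.6 (44.6 to 97.4), and rich cells held 96.8% of its UMIs. Rich cells also held 95.2% of the UMIs of UBE2C, 95.7% of those of CENPA and 92.7% of those of CCNB1 at day 14. At least 90% of the UMIs lay in rich cells for 12 members at day 10 and for 21 at day 14. The same count was not made over all genes, so how unusual these counts are was not tested. Member-rich cells were also a smaller share of cells at day 14, as given above, so the counts are not compared between days.

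BUB3 and CDC25B were the least restricted members on both days, followed by NCAPD2 at day 10 and SMC4 at day 14. BUB3, a checkpoint protein of the kinetochore, stood at 276 CPM in rich and 128 CPM in poor cells at day 14, a ratio of 2.15 (2.04 to 2.28). CDC25B stood at 104 and 47.4 CPM, a ratio of 2.19 (1.99 to 2.42). SMC4 stood at 569 and 141 CPM, a ratio of 4.04 (3.84 to 4.24). At day 10 the ratios of BUB3, CDC25B, NCAPD2 and SMC4 were 3.14, 3.37, 3.88 and 4.47. A BUB3 UMI was found in 46.6% of poor cells at day 14 and a PLK1 UMI in 1.27%, so detection of these 2 members in poor cells was far apart at equal depth.

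Free transcripts in the droplets can add UMIs to any cell. In barcodes with 10 to 100 UMIs, taken as near-empty, the members summed to 5358 CPM at day 10 and 5917 CPM at day 14, which is 80.02% and 91.3% of their level in kept cells. PLK1 stood at 71.2 CPM in near-empty barcodes of day 14, against 2.53 CPM in poor cells, and CENPA at 66.6 against 1.63 CPM. For PLK1 and CENPA the level in poor cells was thus far below that in near-empty barcodes. BUB3 stood at 202 CPM in near-empty barcodes of day 14 against 128 CPM in poor cells, and CDC25B at 66.0 against 47.4 CPM. The part of a cell's UMIs that is free RNA was not estimated. Whether the member UMIs of poor cells are free RNA was therefore not tested.

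Where a cell stood in replication was followed by the relation of the members to 22 replication genes, such as MCM2, PCNA and TYMS, none of which is a member. The median sum of replication UMIs went up and then down with the member sum. At day 10 it was 3 UMIs in cells with 0 to 4 member UMIs, 21 UMIs in cells with 10 to 19, and 10 UMIs in cells with 80 or more. At day 14 it was 2 UMIs, then 23 UMIs in cells with 20 to 39 member UMIs, and 7 UMIs in cells with 80 or more. On both days the cells with most member transcripts thus held fewer replication transcripts than these middle cells. They held more than the cells with 0 to 4 member UMIs.

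Cells in the top 25% of the replication sum were set against the bottom 25% within each day. At day 10, 0 members were past 1.5-fold higher in the top cells and 19 were lower, against 4.65% and 7.73% of all genes. At day 14, 16 members were higher and 7 were lower, against 15.7% and 11.7% of all genes. The bottom cells differed between days in the share of member-rich cells, which was 48.2% at day 10 and 13.7% at day 14. Their median raw depth was 13496 UMIs at day 10 and 10607 at day 14, against 16912 and 18614 in the top cells. With thinned UMIs 26 members were higher and 3 lower at day 14, and with the top and bottom 50% of cells 1 was higher and 13 were lower.

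The order of the members was alike on both days. Over the 45 members the log2 ratios of the days had a Spearman rho of 0.876 and a Pearson r of 0.906, a description over genes, which are not independent, in 2 separate libraries. SMC2 led the order on both days. This condensin subunit stood at 229 CPM in the top and 153 CPM in the bottom cells at day 10 and at 290 and 63.3 CPM at day 14, log2 ratios of 0.57 and 2.11. MAD2L1 had log2 ratios of 0.23 and 1.32, and NCAPG of 0.02 and 1.57. SMC4 followed at day 10 with 0.09 and TACC3 at day 14 with 1.27. CDK1 had log2 ratios of -0.15 and 1.11 and MKI67 of -0.32 and 1.06. Both were above the median of the members on each day, which was -0.50 at day 10 and 0.34 at day 14. TOP2A stood at 161 and 380 CPM at day 10, a log2 ratio of -1.22, and at 318 and 321 CPM at day 14.

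CCNB1 and PLK1 were among the 3 lowest members on both days. CCNB1 stood at 106 CPM in the top and 342 CPM in the bottom cells at day 10, and at 40.01 and 130 CPM at day 14, log2 ratios of -1.64 and -1.59. PLK1 had log2 ratios of -1.82 and -1.31, and CDC20 of -1.41 and -1.32. CENPE had log2 ratios of -1.52 and -0.79, and CCNB2 of -0.82 at day 14. The 3 genes whose promoters are printed above were therefore past the limit downward on both days.

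**Figure D3:**
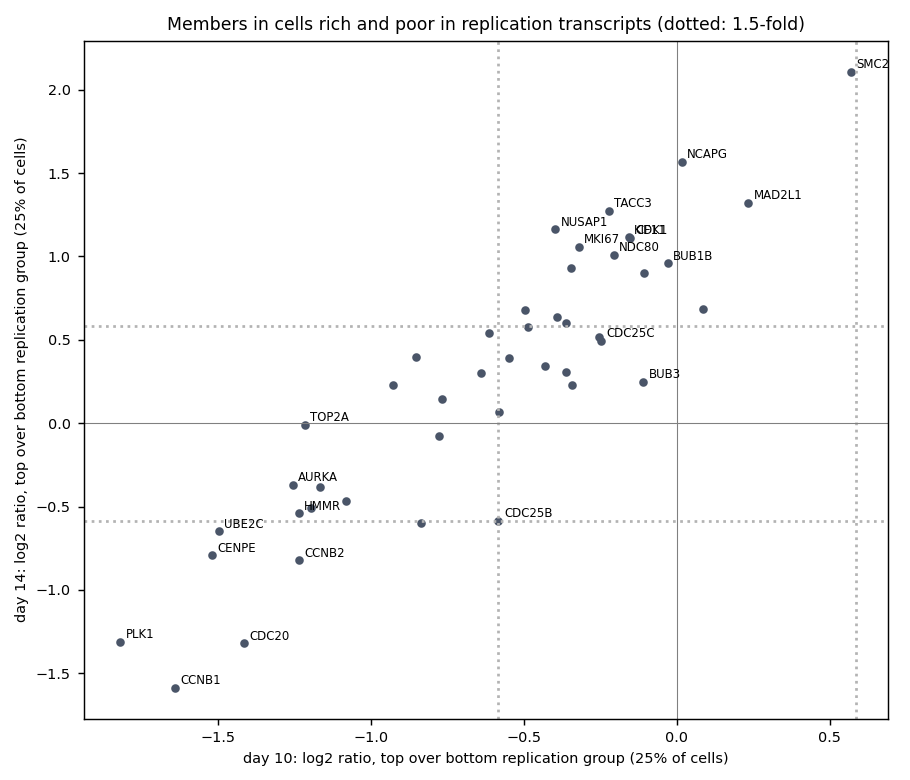
Log2 ratio of each member in the top over the bottom 25% of cells by replication transcripts, at day 10 (x axis) and day 14 (y axis), with dotted lines at 1.5-fold. SMC2 is at the upper right (0.57 and 2.11) and CCNB1 (-1.64 and -1.59) and PLK1 (-1.82 and -1.31) are at the lower left, and nearly all points lie higher on the day 14 axis than on the day 10 axis.

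Cells were sorted in silico into gates by single genes, at equal depth and in the order given here, so that each cell took the first gate it met. GNLY-high cells had 10 or more GNLY UMIs (granulysin, a killer lymphocyte protein). CD34+, RAG1+ and CD8B+ cells had 1 or more UMI of a progenitor antigen, of the recombinase of receptor genes and of the CD8 beta chain. IGLL1-high cells had 5 or more UMIs of IGLL1, a surrogate light chain used by early lymphoid cells. IGLL1-low CD3D+ cells had at most 1 IGLL1 UMI and 1 or more CD3D UMI. At day 10 the CD34+ gate held 817.7 CPM summed over 5 progenitor markers, against at most 162 CPM in the other groups of that day. GNLY-high cells held 11598 CPM over 6 killer markers at day 10 and 19379 CPM at day 14, against at most 1579 CPM elsewhere. The progenitor markers include CD34 and the killer markers include GNLY, so these sums are partly set by the gates themselves. They are no independent check of the gates. At day 14, CD34+ (12 cells) and IGLL1-high (36 cells) were too few to describe. Of the 1836 RAG1+ cells of day 14, 1563 also had a CD8B UMI, so that gate holds CD8B-positive cells.

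At day 10 the summed members were lower in CD34+ cells than in every other gate. They stood at 4650 CPM in CD34+, 6272 CPM in IGLL1-high, 7493 CPM in CD8B+, 7581 CPM in IGLL1-low CD3D+, 7909 CPM in RAG1+ and 8856 CPM in GNLY-high cells. At day 14 the order was RAG1+ with 7904 CPM, CD8B+ with 6611 CPM, IGLL1-low CD3D+ with 6268 CPM and GNLY-high with 4784 CPM. By summed level the killer lymphocyte gate thus stood at the top of the order at day 10 and at the bottom at day 14. Member-rich cells made up 36.1% of CD34+ cells at day 10 (32.4 to 39.9), and between 58.1% and 67.5% of each of the other 5 gates. The largest of these shares was that of RAG1+ and not that of GNLY-high cells. At day 14 they made up 44.6% of RAG1+, 43.0% of CD8B+, 38.0% of IGLL1-low CD3D+ and 25.8% of GNLY-high cells.

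**Figure D4:**
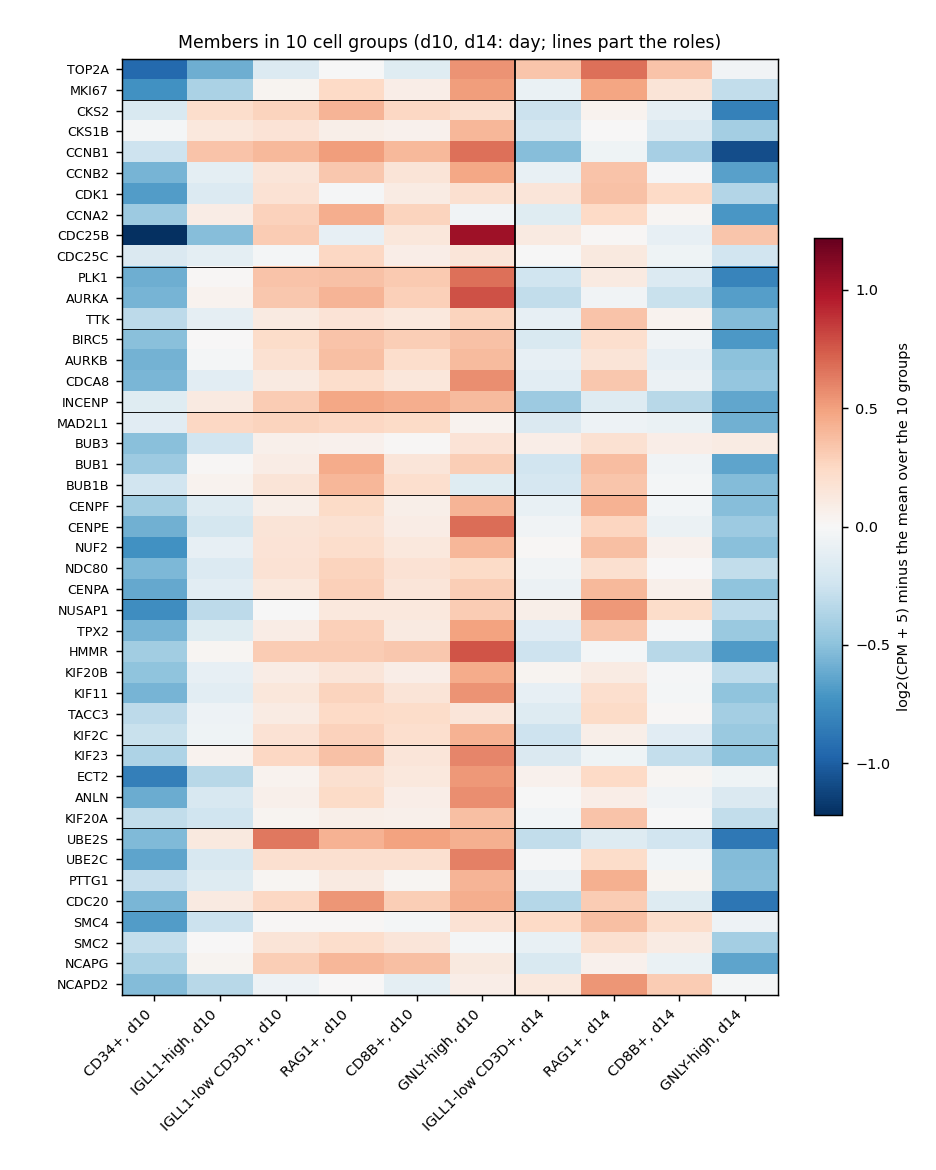
Each member (rows, grouped by role) in 10 cell groups (columns, 6 at day 10 and 4 at day 14), as log2(CPM + 5) minus its mean over the groups. The CD34+ column of day 10 and the GNLY-high column of day 14 are blue in most rows (summed 4650 and 4784 CPM), the GNLY-high column of day 10 is red (8856 CPM), and CDC25B and BUB3 depart from the other rows in GNLY-high cells of day 14.

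From CD34+ to IGLL1-high cells of day 10, all 45 members had a ratio above 1, with a median log2 ratio of 0.42 against 0.04 for all genes. Past 1.5-fold, 7 members were higher and 0 were lower, against 3.13% and 5.14% of all genes. They were CDC25B, CDC20, UBE2S, NUF2, AURKA, PLK1 and CCNB1. CDC25B stood at 46.1 against 26.5 CPM, CDC20 at 150 against 92.2 CPM, UBE2S at 598 against 376 CPM and CCNB1 at 255 against 167 CPM. CDK1 stood at 143 against 98.98 CPM, MKI67 at 234 against 183 CPM and TOP2A at 249 against 195 CPM. PTTG1, KIF20A and CDC25C differed least, with log2 ratios of 0.13, 0.06 and 0.06. Genes at 50 CPM or more in both groups had a median log2 ratio of 0.11, and the median depth was 19430 UMIs in IGLL1-high and 16242 UMIs in CD34+ cells. Scaling by that median left 1 member past the limit, gates on raw UMIs left 0, and thinned sums gave 20.

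IGLL1-low CD3D+ cells stood above IGLL1-high cells at day 10 in all 45 members, with a median log2 ratio of 0.25. Only CDC25B passed the limit, at 86.1 against 46.1 CPM with a log2 ratio of 0.83, and 0 members were lower, against 3.14% higher and 2.47% lower of all genes. UBE2S (860 against 598 CPM) and TOP2A (338 against 249 CPM) followed with log2 ratios of 0.52 and 0.43. MKI67 and CDK1 had log2 ratios of 0.42 and 0.35, and CDC20 of 0.14. CCNB1 (264 against 255 CPM), CKS1B (297 against 290 CPM) and MAD2L1 (253 against 250 CPM) differed least. Myeloid markers summed to 649 CPM in the first group and 141 CPM in the second, and their part in these ratios was not tested.

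At day 14, CD8B+ cells stood below RAG1+ cells in all 45 members, with a median log2 ratio of -0.24 and 0 members past the limit either way, against 1.39% higher and 1.54% lower of all genes. CDC20 (123 against 172 CPM), CENPF (388 against 534 CPM) and BUB1 (58.2 against 79.2 CPM) differed most, with log2 ratios of -0.47, -0.45 and -0.42. MAD2L1, UBE2S and SMC2 differed least, with log2 ratios of -0.01, -0.07 and -0.09. CCNB1, MKI67, TOP2A and CDK1 had log2 ratios of -0.36, -0.32, -0.32 and -0.11.

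The RAG1+ gate of day 14 was itself a mixture. Outside the GNLY-high gate, cells without a RAG1 UMI had a median of 12 member UMIs, and those with 1 RAG1 UMI had 17. With 2 or 3 RAG1 UMIs the median was 12.5, and with 4 or more it was 6. In this last class of 272 cells both ends were filled, with 37.9% of cells at 0 to 4 member UMIs and 18.4% at 80 or more. In the 5292 cells without RAG1 these shares were 23.4% and 8.98%. Median replication UMIs were 4 in the class with most RAG1 and 11 in the class with none. Median raw depth was lower in the class with most RAG1, at 8909.5 against 17566 UMIs, while the values above are at equal depth.

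GNLY-high cells of day 14 stood below CD8B+ cells of the same day. Of the members 0 were past 1.5-fold higher and 10 were lower, against 9.75% and 6.95% of all genes, and the median log2 ratio was -0.45. CCNA2 (61.5 against 105 CPM), CDC20 (72.9 against 123 CPM) and CKS2 (145 against 241 CPM) differed most, with log2 ratios of -0.73, -0.72 and -0.71. CCNB1, CDK1, MKI67 and TOP2A followed with -0.67, -0.60, -0.45 and -0.40. CDC25B went the other way, at 87.8 against 63.3 CPM with a log2 ratio of 0.44, and BUB3 and ECT2 had log2 ratios of 0.02 and -0.07. Genes at 50 CPM or more in both groups had a median log2 ratio of -0.12, and scaling by it left 3 members lower. Thinned sums gave 29 lower and 1 higher member, overlapping gates 17 lower and gates on raw UMIs 4 lower.

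CD8B+ cells of day 14 were also set against cells of day 10, to follow the T lineage between the days. Against IGLL1-low CD3D+ cells, 0 members were past the limit upward and 5 downward, against 9.71% and 7.55% of all genes. Against the CD8B+ cells of day 10, 0 were higher and 4 lower, against 9.43% and 6.76%. Both comparisons share the CD8B+ cells of day 14, so their values are given side by side. CCNB1 had a log2 ratio of -0.80 in each, with 149 CPM in the shared group against 264 and 263 CPM. UBE2S had log2 ratios of -0.87 and -0.72, INCENP of -0.65 and -0.78, and HMMR of -0.65 and -0.66. AURKA was past the limit in the first comparison only, at -0.59 and -0.56. TOP2A led upward with log2 ratios of 0.52 and 0.50, followed by NCAPD2 with 0.37 and 0.43. NUSAP1 followed in the first comparison with 0.23, and SMC4 in the second with 0.24. CDK1 (0.07 and 0.14), MKI67 (0.13 and 0.08) and CDC20 (-0.42 and -0.46) stayed inside the limit.

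Of the 4 gates described on both days, GNLY-high differed most. Its summed members had 8856 CPM in the first library and 4784 CPM in the second, a ratio of 0.540 (0.530 to 0.550), while RAG1+ cells stood at 7909 and 7904 CPM. Of the 45 members 0 were past 1.5-fold higher and 35 were lower at day 14, against 9.65% and 11.5% of all genes. CCNB1 was at 321 and 91.8 CPM, PLK1 at 166 and 56.6 CPM, and HMMR at 219 and 76.7 CPM, log2 ratios of -1.75, -1.47 and -1.46. CDC20, MKI67, TOP2A and CDK1 had log2 ratios of -1.32, -0.81, -0.59 and -0.55. BUB3 (221 and 211 CPM), NCAPD2 (71.3 and 65.9 CPM) and SMC4 (349 and 297 CPM) differed least. The gate held 132 cells at day 10 and 1417 at day 14, with median depths of 8751 and 11391 UMIs, and genes at 50 CPM or more in both had a median log2 ratio of -0.13. At day 10 it had myeloid markers at 507 CPM against 27.4 CPM at day 14, and their part was not tested.

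Cyclin B1 stood lower relative to cyclin B2 at day 14 in every group described. The ratio of CCNB1 to CCNB2 UMIs is compared between groups and is not read as an order of the genes, and the pairs given here were picked after their values were seen. The groups of a day were its gates and the cells outside all gates. Over the 7 groups of day 10 the ratio of CCNB1 to CCNB2 ran from 1.42 to 1.74, and over the 5 groups of day 14 from 0.925 to 1.03. In IGLL1-low CD3D+ cells it was 1.49 (1.46 to 1.52) at day 10 and 0.926 (0.894 to 0.958) at day 14. In CD8B+ cells it was 1.47 (1.38 to 1.57) and 0.945 (0.917 to 0.974), and in GNLY-high cells 1.44 (1.25 to 1.66) and 0.925 (0.865 to 0.988). No group of one day overlapped a group of the other day, but the groups of a day are parts of 1 library and not replicates. CCNB1, UBE2S and TOP2A were the only members past 1.5-fold in the day comparison. Ratios built from them therefore differ between the days through that choice. How many other pairs of genes separate in this way was not counted. The ratio of CCNB1 to TOP2A ran from 0.578 to 1.02 at day 10 and from 0.250 to 0.355 at day 14. That of UBE2S to TOP2A ran from 1.34 to 2.54 and from 0.809 to 1.15. The other 2 pairs computed overlapped between the days. CDK1 over CCNB2 ran from 0.792 to 1.04 at day 10 and from 1.02 to 1.53 at day 14, and CDC25B over CDC25C from 2.68 to 10.65 and from 4.21 to 9.43.

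**Figure D5:**
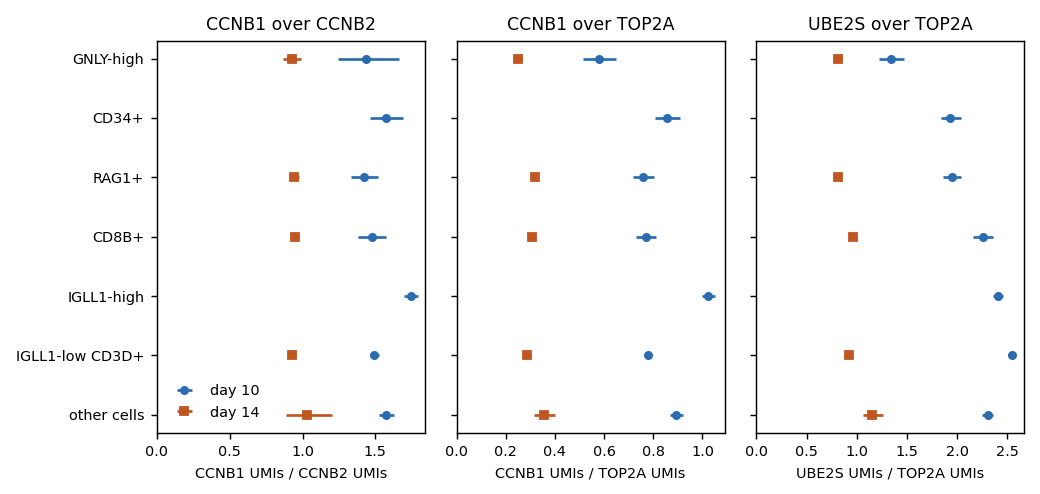
UMIs of CCNB1 over CCNB2, CCNB1 over TOP2A and UBE2S over TOP2A (x axes, linear from 0) in each cell group of day 10 (circles) and day 14 (squares) with exact 95% intervals. Every day 14 point lies left of every day 10 point in each panel, from 0.925 to 1.03 against 1.42 to 1.74 for CCNB1 over CCNB2. The pairs were picked after their values were seen, and the groups of a day are parts of 1 library.

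The make-up of the member UMIs differed in the same way in member-rich cells. These cells carry 85.7% and 85.4% of all member UMIs, so their make-up is not independent of that of all cells. TOP2A made up 4.68% of their member UMIs at day 10 and 8.17% at day 14, CCNB1 3.88% and 2.43%, and UBE2S 10.3% and 6.72%. In all kept cells TOP2A made up 4.32% and 7.52%, CCNB1 3.67% and 2.26%, and UBE2S 10.3% and 6.79%.

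The related genes were counted in the same day comparison, in which 12% of all genes were past the limit upward and 9.63% downward. GAS2L3, CDKN1A and ANAPC2 were under 10 CPM in both libraries and could not be called. Of the 21 other G2 and M genes that could be called, HMGB2 (772 and 1208 CPM) was past 1.5-fold higher at day 14, and TUBB4B (648 and 401 CPM) and JPT1 (608 and 324 CPM) were lower, and the list of 22 had a median log2 ratio of 0.01. Of the 22 replication genes 0 were higher and MCM3 (234 and 153 CPM), GINS2 (163 and 90.9 CPM) and RFC2 (94.4 and 58.6 CPM) were lower, with a median of -0.28. Among 15 regulators of G2 and M transcription, E2F2 (23.2 and 42.5 CPM) and RBL2 (20.4 and 40.1 CPM) were higher and 0 were lower. Of the 12 core subunits of the APC/C that could be called, 0 passed the limit either way.

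Of the 11 inhibitors and brakes of the cycle that could be called, 6 were past the limit upward and 1 downward, and the list of 12 had a median log2 ratio of 0.61. BTG2, an antiproliferative gene, had 20.7 CPM in the first library and 144 CPM in the second, a log2 ratio of 2.53, and BTG1 at 111 and 365 CPM. The CDK4 and CDK6 inhibitors CDKN2A (46.0 and 132 CPM) and CDKN2D (61.2 and 147 CPM) had log2 ratios of 1.43 and 1.20. CDKN2C and CDKN1B were also past the limit upward, while CDKN1C stood at 58.9 and 34.2 CPM and was past it downward. These are pooled levels over all kept cells, and the cells that hold them were not matched to member-poor cells.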

How the data were processed

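The authors used Cell Ranger 4.0.0 and GRCh38 to align the reads of 2 single-cell 3' libraries and to count UMIs for each gene, as the paper's methods and the submitters' processing notes state. The deposited values are raw counts for every barcode, with no normalization or filter for cells. Gene rows, IDs and symbols are those of the deposited matrices.

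The mitochondrial limit for cells is that of the study's methods, which give the limits of 1000 and 7000 for detected transcripts. They were read here as detected genes. Sums of UMIs over a group's cells were scaled to CPM, with exact Poisson intervals, and ratios of counts have exact conditional binomial intervals (Python 3.11.15, numpy 2.4.6, scipy 1.17.1, pandas 2.3.3). Log2 ratios had 5 CPM added to both levels, and genes at 10 CPM or more in either group were counted past 1.5-fold. Gates, shares and sums per cell used cells thinned to 5000 UMIs, which left out 291 and 382 cells. Doublets were kept. Scrublet in scanpy 1.11.5 called the cells with the highest scores, 0.8% for each 1000 cells, which gave 1174 and 638 calls for an alternative. At day 10, 1425 cells outside the gates had 2 to 4 IGLL1 UMIs, near the limit of that gate.

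With 1 library per day and cells that are not replicates, no p-value was calculated. The members and lists were chosen with earlier results of these data known. Named were all members for the day comparison, the 3 highest and 3 lowest ratios and CCNB1, CDK1, MKI67, TOP2A and CDC20 in the others, and up to 4 genes with the largest ratios from each related list. Poisson counts were simulated for the day comparison at the depths of the 2 libraries. All 50 genes changed by a fold of 2 and all 50 changed by 0.5 passed the limit, as did 0 of 7663 unchanged genes. The simulation held counting error only and no variation between cells or libraries, so it gives no rate of false calls between days. Promoters are from RefSeq (GRCh38.p14) and gene spans from GENCODE by gene ID.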

Additional observations from a re-analysis of the deposited data

Results flagged for a closer look

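TOP2A had opposite day effects in 2 cell groups, each past 1.5-fold. In RAG1+ cells its log2 ratio of day 14 over day 10 was 0.673, from 379 to 607 CPM, and in GNLY-high cells it was -0.590, from 555 to 367 CPM. In CD8B+ and IGLL1-low CD3D+ cells it was 0.50 in both. The median log2 ratio of the members was -0.05 in RAG1+ cells and -0.82 in GNLY-high cells. In GNLY-high cells TOP2A was thus only just past the limit and differed less than the median member. Genes at 50 CPM or more on both days had a median of -0.13 in that gate. The difference was not tested, because each day has 1 library, and the GNLY-high group of day 10 holds 132 cells.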

How the results depend on the processing

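Filters on cells, doublets, weighting, gates, pseudocount, limit and scaling were varied. Of 174 counts of members past the limit, 138 stayed within 1.5 times and 36 did not. Counts of lower members in the replication comparison and both counts of the GNLY-high day comparison were added after seeing the data. The causes were not tested. With thinned UMIs summed, the counts became 4 lower for day 14 over day 10, 20 higher for IGLL1-high over CD34+, 1 higher and 29 lower for GNLY-high over CD8B+, 1 higher for the replication comparison at day 10, and 26 higher and 3 lower for it at day 14. Gates on raw UMIs gave 0 higher for IGLL1-high over CD34+, 1 lower for CD8B+ over RAG1+, 4 lower for GNLY-high over CD8B+ and 9 lower for CD8B+ between days. Overlapping gates gave 4 higher for IGLL1-high over CD34+, 17 lower for GNLY-high over CD8B+, and 1 higher and 3 lower for CD8B+ of day 14 over IGLL1-low CD3D+ of day 10. A 2-fold limit left 0 in each comparison that had members past 1.5-fold, except 12 lower in the replication comparison at day 10, 9 higher and 3 lower in it at day 14, and 15 lower in GNLY-high cells between days. Median-ratio scaling gave 1 lower for the days, 1 higher for IGLL1-high over CD34+, 3 lower for GNLY-high over CD8B+, 1 higher and 2 lower for CD8B+ of day 14 over IGLL1-low CD3D+, and 1 higher for CD8B+ between days. Without called doublets the counts were 2 higher for IGLL1-low CD3D+ over IGLL1-high and 1 higher for the replication comparison at day 10. Groups of 50% of cells gave 1 higher and 13 lower in the replication comparison at day 14, where the median log2 ratio turned to -0.14 from 0.34.

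The share of member-rich cells was 79.12% at day 10 and 52.7% at day 14 at 10 or more UMIs, and 29.81% and 25.45% at 40 or more. It was 37.47% at day 14 with 1500 to 6000 genes, 53.45% and 37.35% without called doublets, and 58.78% at day 10 in cells with a CD3D UMI. Under every alternative run the share was higher at day 10. No paired analysis was possible because each day has 1 library. With 1 library per day, counting error is the only error that depth sets here, and it reached 54.4% of the level for CDC25C in the GNLY-high cells of day 10.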
